A study of Mus musculus with 6 samples.

Results

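The genes described here are 10 neighbours of the mouse genes H3f3a and H3f3b, both of which encode histone H3.3, in embryos that lack a wild-type copy of either. They were taken by symbol from the 23366 genes of the count tables, and all 10 were present. Acbd3, Lin9, Ephx1, Enah and Itpkb stand near H3f3a on chromosome 1, and Galk1, Unk, Wbp2, Nt5c and Mettl23 near H3f3b on chromosome 11. The list was drawn up with the knockout and control values in view, so those values are given below as a description, without a test.

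H3.3 is the form of histone H3 that is placed into chromatin outside DNA replication. A targeted allele is inherited together with the chromosome on either side of it, and neighbouring genes can share regulatory DNA, which is why genes beside a targeted locus are inspected in crosses of this kind. The genes themselves have unrelated jobs, from galactose metabolism to the actin cytoskeleton. They are grouped here only by place.

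Polyadenylated RNA was sequenced from 6 whole embryos at mid-gestation, labelled E10.5 for the embryonic day. The 3 knockout embryos were H3f3a fl/-, H3f3b fl/-, Sox2-Cre Tg/0 and Trp53-/-, and the 3 control embryos were H3f3a fl/+, H3f3b fl/+, Sox2-Cre Tg/0 and Trp53-/-. Sox2-Cre is a recombinase transgene active in the epiblast, from which the embryo proper forms, and it was present in both groups, so the floxed alleles of the controls were open to deletion too. No embryo had a working Trp53, which encodes the tumour suppressor p53, and all had a mixed C57BL/6, CD1 and 129 background. Which strain gave the chromosome beside each null, floxed or wild-type allele is not in the labels. A change that follows from the loss of H3.3 and a difference carried by the linked chromosome therefore cannot be told apart from gene counts. Whether embryos were littermates is not stated either, so the errors measure only the spread between these samples.

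Each library held 24952853 to 27871038 counts in genes in the knockouts and 27775576 to 30461689 in the controls. The targeted genes were both lower in the knockouts, though not to the same extent. H3f3a had 1818, 1744 and 1996 counts in the knockouts and 9851, 10775 and 9685 in the controls, and H3f3b had 12164, 13626 and 11431 in the knockouts and 19717, 21379 and 18942 in the controls. In CPM, H3f3b averaged 455 ± 56.8 in knockouts and 691 ± 31.5 in controls (SD, n = 3 each), so controls were only 1.52 times as high, and most H3f3b reads remained in embryos labelled as having no wild-type copy. Which bases of H3f3b the null and floxed alleles lack is not in the labels, so the counts over the whole gene are a limited check of its loss. All 9 markers of embryonic tissues looked at, from Pax6 of the neural tube to Myh6 of heart muscle, were detected in every library. Their levels were not all alike. Kdr averaged 120 ± 8.72 CPM in knockouts and 88.4 ± 2.93 CPM in controls (edgeR adjusted p = 0.0302). Tubb3 averaged 237 ± 23.2 CPM in knockouts and 321 ± 44.8 CPM in controls (edgeR adjusted p = 0.102). For the other markers the groups overlapped. Alignments that matched no counted gene feature made up 18.3%, 10.6% and 18.0% of the total in knockouts 1, 2 and 3. In controls 1, 2 and 3 they made up 9.79%, 10.7% and 13.1%. Whether they lay in introns or between genes is not given.

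Across all genes the comparison asked which transcripts differ when the wild-type H3.3 alleles are missing. A gene is called here when its adjusted p is under 0.05 by edgeR's quasi-likelihood test, with Benjamini-Hochberg adjustment over the 15075 genes tested. By that rule 227 genes were called, which is 1.51% of those tested, with 83 higher (0.551%) and 144 lower (0.955%) in the knockouts. All 10 flanking genes were tested. The rule marks 2 of them, Nt5c and Mettl23, both lower. The embryos of the groups did not overlap in CPM (counts scaled to a common library size, with TMM factors) for 5 of the 10, beside 24.1% of all tested genes, of which 11.8% were higher and 12.3% lower. Since the list was chosen on this contrast, neither the marks nor these shares are a test of the 10 genes, and nothing is read from them. Over all genes tested, 19.2% had an unadjusted p under 0.05 and DESeq2 called 4.96%, which are the backgrounds for the counts of neighbours and relatives below. The log2 fold changes of knockout over control ran from -0.71 to 0.53, with a median of 0.13 over the 10 genes and -0.0010 over all genes tested.

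**Figure D1:**
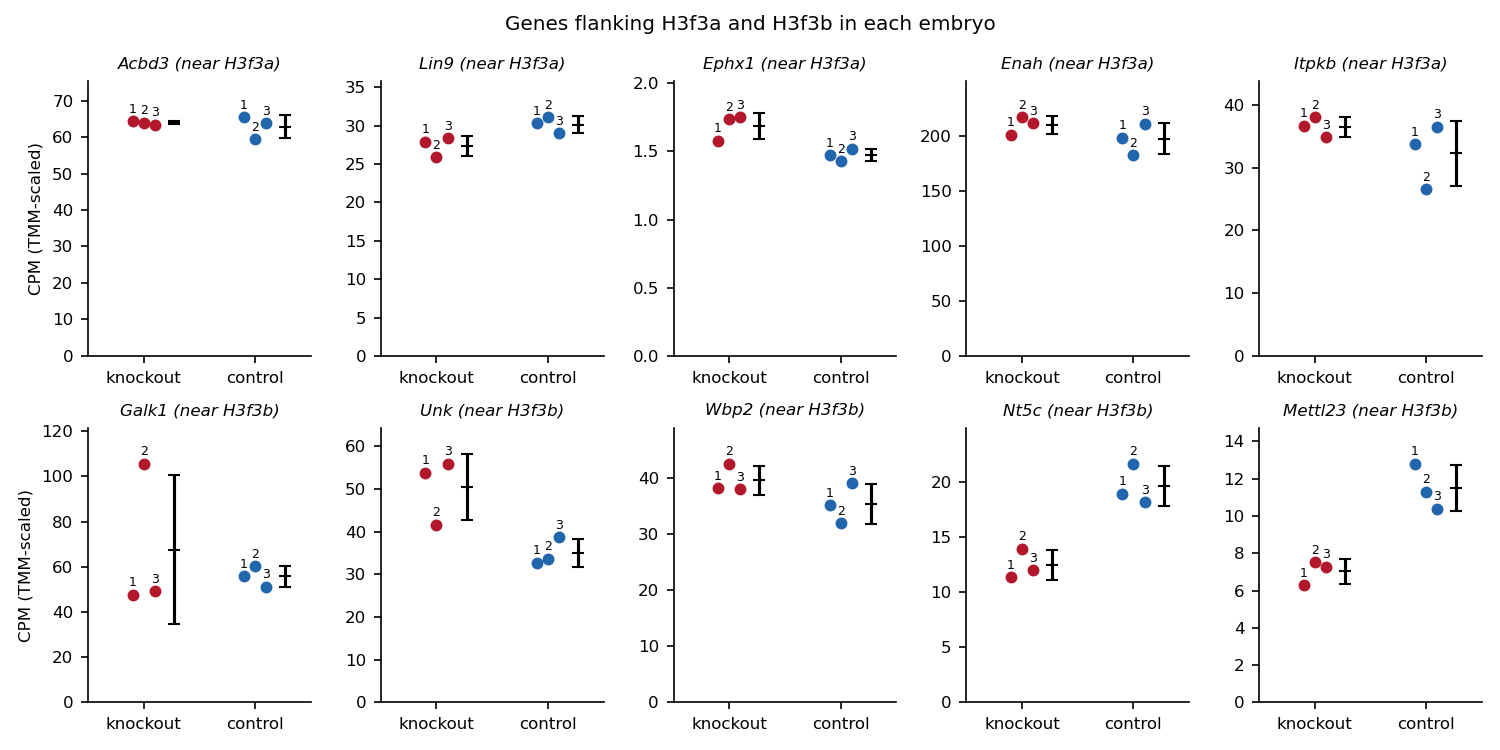
Normalised expression of the 10 genes in each embryo, in CPM on axes that start at 0, with knockout embryos in red and control embryos in blue and each point numbered by replicate. Bars show the mean and SD of 3 embryos. Nt5c and Mettl23 were lower and Unk higher in every knockout than in any control, and Galk1 stood out in knockout 2 alone, at 105.5 CPM.

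Beside H3f3a the 5 genes stayed close to their control levels. Acbd3 encodes an acyl-CoA binding protein of the Golgi and is the nearest annotated protein-coding gene on 1 side of H3f3a. It had 64.3, 63.9 and 63.4 CPM in the knockouts and 65.4, 59.4 and 63.8 CPM in the controls. The groups overlapped, and the log2 fold change was 0.02 ± 0.07 (SE). Its neighbour H3f3a, in the same libraries, was 5.16-fold lower. Sde2, a gene of genome maintenance and splicing and the nearest on the other side, averaged 58.5 ± 0.504 CPM in the knockouts and 55.5 ± 4.10 CPM in the controls (SD, n = 3 each) and was not called by edgeR (log2 fold change 0.07 ± 0.08, adjusted p = 0.623).

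Lin9 encodes a subunit of the MuvB core, which sets cell cycle genes on or off. It lies 3 genes from H3f3a. Its levels were 27.9, 25.9 and 28.4 CPM in the knockouts, against 30.4, 31.1 and 29.0 CPM in the controls. Every knockout was below every control, but the highest knockout and the lowest control lay within 1 CPM of each other, and the log2 fold change was -0.14 ± 0.08.

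Ephx1, the microsomal epoxide hydrolase of xenobiotic metabolism, was the scarcest of the 10. It gave 41, 47 and 51 counts in the knockouts and 43, 42 and 43 in the controls, or 1.58, 1.74 and 1.75 CPM against 1.47, 1.43 and 1.52 CPM. The CPM ranges did not overlap, yet the exact Poisson interval of a single library was wider than the gap, at 29.4 to 55.6 for the 41 counts of knockout 1 (95%, counting error only). The log2 fold change was 0.20 ± 0.20, so a difference was not detectable at this depth.

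Itpkb encodes a kinase of inositol trisphosphate, and Enah encodes Mena, which promotes the growth of actin filaments in moving cells and axons. Itpkb had 36.7, 38.0 and 34.8 CPM in the knockouts, against 33.8, 26.5 and 36.5 CPM in the controls. Control 2 was the low library, control 1 lay just under the knockouts and control 3 among them. Enah, 15 genes away, had 200.9, 216.7 and 211.5 CPM in the knockouts, against 198.0, 182.5 and 210.8 CPM in the controls, again with control 2 lowest. The log2 fold changes were 0.18 ± 0.12 for Itpkb and 0.09 ± 0.08 for Enah.

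The 5 genes near H3f3b were also chosen on this contrast, so no difference between the loci is read from them. Unk was higher and Nt5c and Mettl23 lower in every knockout than in any control, and Galk1 was high in a single embryo. The start regions of these 4 genes are printed to show the sequences that lie upstream of the transcripts whose levels differed between embryos. They are RefSeq sequences of GRCm38.p6, each 300 bases with 250 before and 50 after the annotated start, for Unk (chr11:116030066-116030365, plus strand), Galk1 (chr11:116012670-116012969, minus strand), Nt5c (chr11:115491765-115492064, minus strand) and Mettl23 (chr11:116843265-116843564, plus strand). The count tables themselves were made on mm9. Capitals mark 4 motifs searched on both strands, the GC box GGGCGG, the CCAAT box CCAAT, the TATA box TATAAA and ACGTG, the core of hypoxia response elements.
Unk: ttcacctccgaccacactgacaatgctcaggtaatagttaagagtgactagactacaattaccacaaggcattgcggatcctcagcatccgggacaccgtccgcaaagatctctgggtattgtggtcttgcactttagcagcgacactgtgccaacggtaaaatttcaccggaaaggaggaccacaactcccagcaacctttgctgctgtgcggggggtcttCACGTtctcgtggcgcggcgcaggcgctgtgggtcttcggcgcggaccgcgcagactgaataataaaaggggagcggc
Galk1: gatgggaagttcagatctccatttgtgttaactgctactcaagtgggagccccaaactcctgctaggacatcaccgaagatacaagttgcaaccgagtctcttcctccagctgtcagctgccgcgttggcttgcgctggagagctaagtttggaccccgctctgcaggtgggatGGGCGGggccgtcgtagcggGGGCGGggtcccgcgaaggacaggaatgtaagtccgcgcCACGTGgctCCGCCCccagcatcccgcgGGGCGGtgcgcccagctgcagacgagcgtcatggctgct
Nt5c: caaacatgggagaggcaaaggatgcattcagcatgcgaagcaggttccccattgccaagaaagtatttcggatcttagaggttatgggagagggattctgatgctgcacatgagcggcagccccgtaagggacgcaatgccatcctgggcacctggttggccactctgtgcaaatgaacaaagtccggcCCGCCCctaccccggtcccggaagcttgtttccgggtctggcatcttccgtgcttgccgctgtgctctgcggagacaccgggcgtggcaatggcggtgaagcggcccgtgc
Mettl23: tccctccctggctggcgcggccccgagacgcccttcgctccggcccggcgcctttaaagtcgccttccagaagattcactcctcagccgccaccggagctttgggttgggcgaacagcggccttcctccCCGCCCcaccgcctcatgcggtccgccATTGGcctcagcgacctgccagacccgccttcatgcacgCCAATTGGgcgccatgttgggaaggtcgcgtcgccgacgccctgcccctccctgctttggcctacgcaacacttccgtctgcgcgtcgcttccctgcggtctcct
The Galk1 region held 4 GC boxes and 2 ACGTG matches, which are the opposite strands of the palindrome CACGTG. In the Unk region there was 1 ACGTG match and in the Nt5c region 1 GC box. Mettl23 had 1 GC box and 3 CCAAT boxes, of which a pair on opposite strands overlap. None of the 4 held TATAAA. Among 32851 such regions of 27025 genes, 35.7% held the GC box, 37.4% CCAAT, 13.6% TATAAA and 19.6% ACGTG. The regions had 21 CG dinucleotides at Unk, 23 at Galk1, 18 at Nt5c and 32 at Mettl23, where the median over all regions was 7 and the upper quartile 20. The members whose regions are not printed had 49 at Enah, 19 at Wbp2 and 5 each at Ephx1 and Itpkb. Wbp2 also held 2 ACGTG matches, so neither trait was particular to the 4 printed genes. Of the 10 genes, 8 had an entry in the table, Acbd3 and Lin9 being the others. A match is a run of letters and no evidence that a factor binds there.

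Unk encodes Unkempt, a zinc finger protein that binds messenger RNA and shapes young neurons. It is the nearest protein-coding gene on 1 side of H3f3b and is transcribed from the opposite strand. Its levels were 53.8, 41.7 and 55.9 CPM in the knockouts, against 32.7, 33.7 and 38.7 CPM in the controls. All 3 knockouts exceeded all 3 controls, with knockout 2 nearest to them. Unk averaged 50.5 ± 7.71 CPM in knockouts and 35.1 ± 3.22 CPM in controls (SD, n = 3 each), a log2 fold change of 0.53 ± 0.12 (SE) or 1.44-fold. Without knockout 2 the log2 fold change was 0.65.

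Galk1 encodes galactokinase, which makes galactose phosphate in the first step of the Leloir pathway. It is the nearest gene on the other side of H3f3b, on the same strand. It had 47.7, 105.5 and 49.3 CPM in the knockouts, against 55.8, 60.3 and 51.1 CPM in the controls. Knockouts 1 and 3 were below every control, and knockout 2 was 2.18 times the mean of the other knockouts and 1.75 times the highest other library. A ratio of knockout 2 to the other knockouts at least as high was found for 0.670% of tested genes, 101 in number. The log2 fold change was 0.28 ± 0.31 with all embryos and -0.20 without knockout 2, so its sign rested on that embryo. Knockout 2 also had a smaller share of alignments that matched no counted gene feature than the other knockouts, as given above. The part of this in the Galk1 level was not tested.

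Wbp2 encodes a protein that binds WW domains and assists the coactivator YAP. Its levels were 38.1, 42.5 and 38.0 CPM in the knockouts, against 35.1, 31.9 and 39.0 CPM in the controls. The groups overlapped through control 3, and the log2 fold change was 0.16 ± 0.10. Between Unk and Wbp2 in gene order stands Unc13d, a gene of granule release in blood cells, at 3.87 ± 0.998 CPM in knockouts and 3.02 ± 0.449 CPM in controls (SD, n = 3 each). On the far side of Galk1 the integrin gene Itgb4 was at 1.22 ± 0.545 CPM in knockouts and 1.24 ± 0.270 CPM in controls.

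Nt5c encodes a cytosolic nucleotidase that strips phosphate from deoxynucleotides. It stands 20 genes from H3f3b. Its counts were 295, 378 and 350 in the knockouts and 553, 637 and 515 in the controls, which gave 11.4, 14.0 and 12.0 CPM against 19.0, 21.7 and 18.2 CPM. The groups were apart, with the highest knockout well under the lowest control. The means were 12.4 ± 1.35 CPM in knockouts and 19.6 ± 1.82 CPM in controls (SD, n = 3 each), a log2 fold change of -0.66 ± 0.12 (SE), so controls were 1.58 times as high. With 1 library left out at a time the log2 fold change lay between -0.75 and -0.58. The genes on either side of Nt5c were Hn1, at -0.17 ± 0.07 (edgeR adjusted p = 0.222), and Armc7, at 0.08 ± 0.18 (edgeR adjusted p = 0.827). Armc7 lies on the opposite strand and covers 4.21% of the exonic length of Nt5c.

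Mettl23 encodes a methyltransferase that has been reported to modify an arginine of histone H3 in mouse oocytes. It was the farthest of the 10, 30 genes from H3f3b. Its counts were 163, 204 and 212 in the knockouts and 373, 332 and 294 in the controls, or 6.28, 7.53 and 7.28 CPM against 12.8, 11.3 and 10.4 CPM. Here too the groups were apart. The means were 7.03 ± 0.662 CPM in knockouts and 11.5 ± 1.21 CPM in controls (SD, n = 3 each), a log2 fold change of -0.71 ± 0.14 (SE), with controls 1.63 times as high. With 1 library left out at a time the log2 fold change lay between -0.77 and -0.62.

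The counting of Mettl23 is uncertain because exons of other genes cover part of it. Genes on the opposite strand, Jmjd6 and the splicing factor gene Srsf2, overlap 23.4% of its exonic length, and Mfsd11 on the same strand overlaps 9.53%. Jmjd6, a jumonji-domain hydroxylase gene, had a log2 fold change of 0.39 ± 0.16 (edgeR adjusted p = 0.226), Srsf2 of -0.04 ± 0.07 (0.770) and Mfsd11 of 0.24 ± 0.12 (0.309). The kit marks strand, but the strand setting of the counting is not given in the sources used here. Of the other 9 genes, Nt5c had the overlap named above, and Itpkb and Ephx1 overlapped pseudogenes over 0.631% and 3.69% of their length.

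Other measures also differed between the same embryos. Short genes were lower in knockouts 1 and 3, where the shortest of 5 equal classes of genes by exonic length (312 to 2558 bases) had medians against the control mean of -0.14 and -0.13 on the log2 scale, while in knockout 2 it was 0.017. The same medians in controls 1, 2 and 3 were 0.0075, 0.058 and -0.070, so control libraries differed among themselves too. Nt5c, with 1140 exonic bases, belongs to that class, and stood at -0.76, -0.48 and -0.68 in knockouts 1, 2 and 3. Of the genes in that class, 5.34% had a log2 fold change under -0.6. Mettl23 has 2697 exonic bases, in the next class (2559 to 3796 bases), and stood at -0.82, -0.58 and -0.63. Of the genes in that next class, 3.81% had a log2 fold change under -0.6. Markers of macrophages were far lower in the knockouts, with 13 of 15 called, a summed level of 6.76 to 7.07 CPM in knockouts and 73.3 to 88.2 CPM in controls, and C1qb and C1qc at 0 counts in every knockout. The part of transcript length or of the macrophage markers in the flanking genes was not tested. In RNA from whole embryos, fewer cells of a type and less RNA per cell cannot be told apart.

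Levels were compared between genes per kilobase of exon, using all annotated exons of a gene in GENCODE M21. In the knockouts the order of mean CPM per kilobase was Galk1 at 48.0 ± 23.4, Wbp2 at 12.4 ± 0.801, Unk at 11.4 ± 1.74, Nt5c at 10.9 ± 1.18, Enah at 9.78 ± 0.373 and Acbd3 at 9.42 ± 0.0657, then Lin9 at 3.78 ± 0.179, Itpkb at 3.49 ± 0.152, Mettl23 at 2.61 ± 0.245 and Ephx1 at 0.866 ± 0.0485 (SD, n = 3). In the controls it was Galk1 at 39.7 ± 3.25, Nt5c at 17.2 ± 1.60, Wbp2 at 11.1 ± 1.12, Acbd3 at 9.27 ± 0.460, Enah at 9.19 ± 0.661 and Unk at 7.90 ± 0.726, then Mettl23 at 4.26 ± 0.450, Lin9 at 4.16 ± 0.148, Itpkb at 3.08 ± 0.492 and Ephx1 at 0.756 ± 0.0234. Galk1 was the most and Ephx1 the least abundant in both groups. Among the knockouts the ranges of neighbours in the order overlapped from Wbp2 through Acbd3 and between Lin9 and Itpkb. Among the controls they overlapped between Acbd3 and Enah, between Enah and Unk and between Mettl23 and Lin9, and were apart elsewhere.

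**Figure D2:**
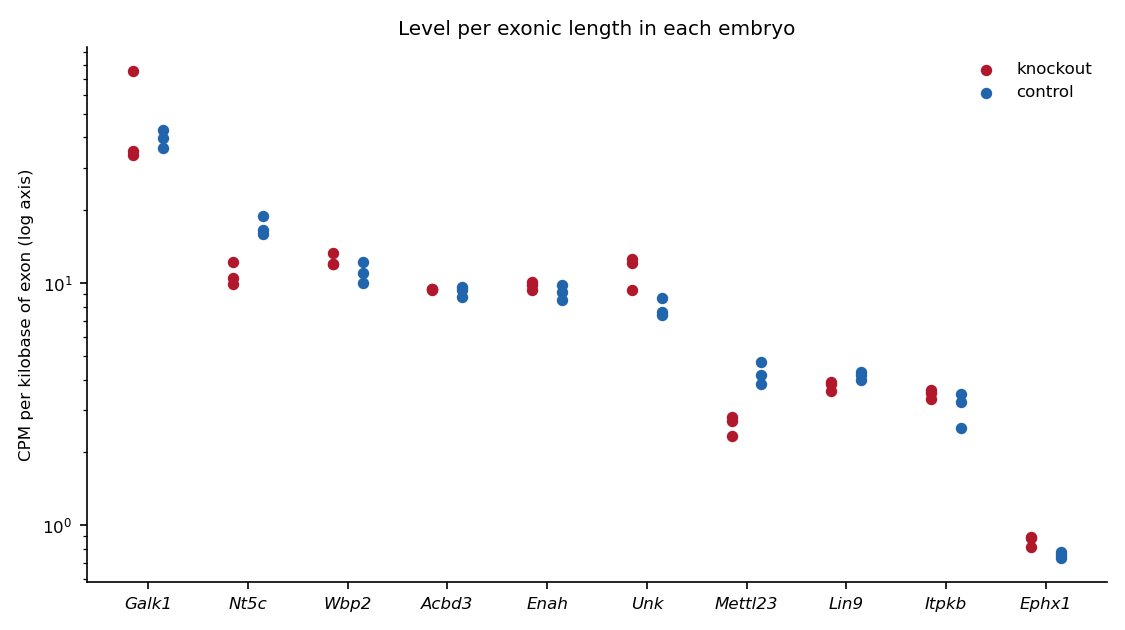
Level of the 10 genes per kilobase of annotated exon in each embryo, on a log axis, with knockout embryos in red and control embryos in blue. Genes run from the highest to the lowest mean in controls, from Galk1 at 39.7 to Ephx1 at 0.756 CPM per kilobase. The knockout points of Nt5c and Mettl23 lie below the control points, and those of Unk above them.

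The stretch of chromosome around each locus was then described by gene order alone, over the nearest 20 annotated protein-coding genes on each side. Around H3f3a 31 of 40 such genes were tested, with 15 folds above 0 and 16 below and a median log2 fold change of -0.03. Of the 31, 5 were flanking genes chosen on this contrast, and the median over the other 26 was -0.046. The embryos of the groups did not overlap for 6 of the 31, or 19.4%, beside 24.1% of all tested genes. Lin9 and Ephx1 were among those 6. The 1 called gene was Cox20, an assembly factor of cytochrome c oxidase, at the edge of the window. It had 9.63, 8.09 and 8.13 CPM in the knockouts, against 14.9, 14.8 and 13.3 CPM in the controls, with the groups apart. By edgeR it was lower at a log2 fold change of -0.73 ± 0.12 (SE, adjusted p = 0.0220). Without knockout 3 or any 1 of the controls it was not called (edgeR adjusted p up to 0.147). Hnrnpu on the opposite strand, which averaged 1598 CPM in knockouts and 1735 CPM in controls, covers 91.1% of the exonic length of Cox20. With 883 exonic bases, Cox20 belongs to the shortest length class above, and the part of length in its level was not tested. Leaving out the flanking genes chosen, edgeR and DESeq2 each called 1 of 26 tested genes over the 20 on each side, Cox20. Of these 26, 2 (7.69%) had an unadjusted edgeR p under 0.05. Among the nearest 10 on each side none of 11 was called by edgeR or DESeq2, and none had such a p. Over all genes the shares were 1.51% called by edgeR, 4.96% by DESeq2 and 19.2% with such a p.

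Around H3f3b 35 of 40 genes were tested, with 19 folds above 0 and 16 below and a median of 0.02. Of the 35, 4 were flanking genes chosen on this contrast, and the median over the other 31 was 0.017. The embryos of the groups did not overlap for 8 of the 35, or 22.9%, beside 24.1% of all tested genes. Unk and Nt5c were among those 8. Nt5c, chosen on this contrast, was the gene called there by edgeR, and DESeq2 called Nt5c and Unk. None of the 31 tested genes outside the 10 described was called by edgeR or DESeq2, and 5 (16.1%) had an unadjusted p under 0.05, beside 19.2% of all genes. For comparison, the stretch around Trp53 was described too. Trp53 is null in both groups and lies, like H3f3b, on chromosome 11, so this is not a stretch of a separate chromosome. Trp53 itself had 5.70, 3.18 and 4.67 CPM in knockouts, against 2.20, 2.96 and 3.11 CPM in controls (edgeR adjusted p = 0.169). Around it 29 of 40 genes were tested, with 17 folds above 0 and a median of 0.22. The 1 gene called by edgeR was the zinc finger gene Zbtb4. DESeq2 called 3 of the 29, beside 4.96% of all genes, and 7 (24.1%) had an unadjusted p under 0.05, beside 19.2% of all genes. The groups did not overlap for 6 (20.7%), beside 24.1% of all tested genes. All 6 were higher in the knockouts, as were 11.8% of all tested genes. With 40 genes a side of Trp53, 14 of 63 were apart and higher and 2 apart and lower. Zbtb4 had 12.9, 12.2 and 14.0 CPM in knockouts, against 6.24, 6.60 and 7.46 CPM in controls. By edgeR the log2 fold change was 0.95 ± 0.13 (SE, adjusted p = 0.00779). Without control 1 or control 2 it was not called (adjusted p up to 0.0606), and without knockout 1, knockout 3 or control 1 the Trp53 median was 0.058, 0.071 and 0.088. The Trp53 median was also -0.01 over the nearest 10 genes on each side.

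**Figure D3:**
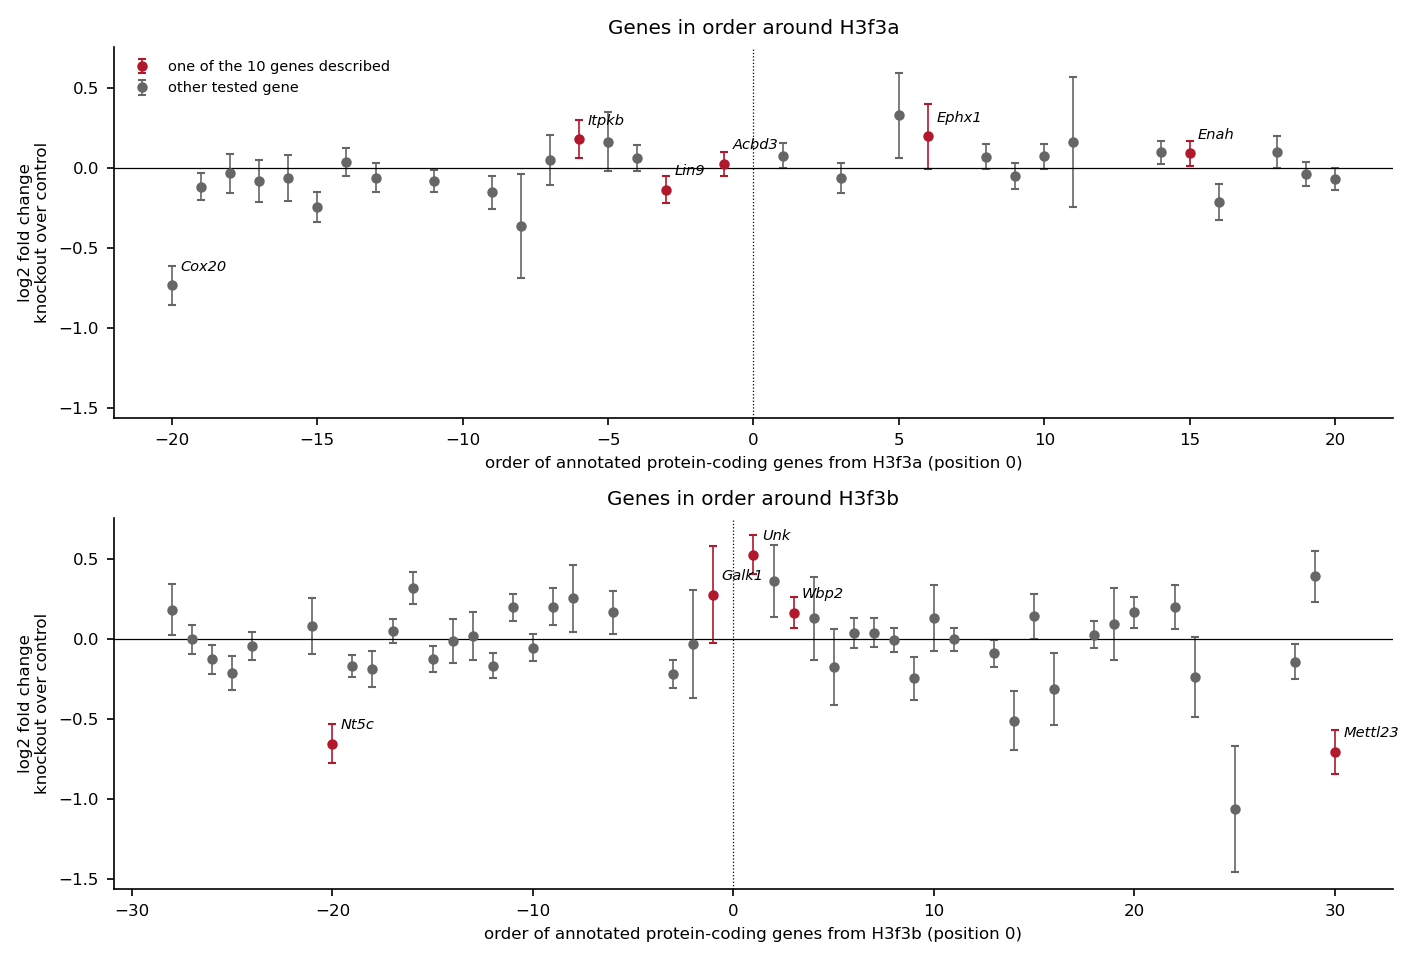
Log2 fold change of knockout over control for each tested gene, in the order of annotated protein-coding genes around H3f3a (20 on each side) and H3f3b (30 on each side), with position 0 at the locus. Red points are the 10 genes described, grey points the others, and bars are SE. Cox20 at -0.73, Nt5c at -0.66 and Mettl23 at -0.71 lie 20 or 30 genes from the loci. St6galnac2, which was not called, is lower still, at -1.07 with a wide SE of 0.39.

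Relatives and partners of the 10 genes that lie outside these stretches were taken from 10 lists of families, complexes and pathways, to place each flanking gene beside genes of its own kind. Of 60 such genes 55 were tested, and none was called by edgeR or DESeq2, and 9 (16.4%) had an unadjusted p under 0.05, beside 19.2% of all genes. Their median log2 fold change was -0.02. The flanking genes were chosen on this contrast, and the lists with earlier results known. The place of a flanking gene among its relatives is therefore a description and not a test. The 6 other tested genes of the Leloir pathway and its entry steps included Galk2 at -0.23 and had a median of -0.09, and their summed level was 168, 177 and 160 CPM in knockouts 1, 2 and 3, against 182, 187 and 174 CPM in the controls. In this sum knockout 2 was the highest knockout but lay within the range of the controls, whereas its Galk1 level was far above them. Among 7 other nucleotidases 6 folds were below 0, with Nt5c2 at -0.25 and Nt5dc3 at 0.41 having the smallest p, and Nt5c itself lay below all of them. The 6 tested relatives of Mettl23 ran from -0.14 to 0.26, with Mettl22 at 0.26 and Mettl21a at 0.16.

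Unkl, the paralogue of Unk, was at 0.21 ± 0.12. The 9 genes around Wbp2 and YAP ran from -0.16 to 0.43, and the TEAD factor genes Tead3 and Tead1, at 0.43 and 0.26, had the smallest p. Of 12 other genes of the DREAM and MuvB complexes 9 had folds above 0, in a range of -0.21 to 0.29, with Mybl2 at 0.19 and Rbbp4 at -0.21. In the acyl-CoA binding family Dbi was at -0.23, Acbd5 at -0.21, Acbd6 at -0.16 and Acbd4 at 0.50. Among the relatives of Enah, Vasp was at 0.20 and Evl at -0.12, and Ephx2, the soluble epoxide hydrolase, was at -0.09. The inositol phosphate kinases included Itpka at 0.56 and Ippk at -0.14, and the 7 of them had a median of -0.03. All these are log2 fold changes of relatives that edgeR did not call.

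**Figure D4:**
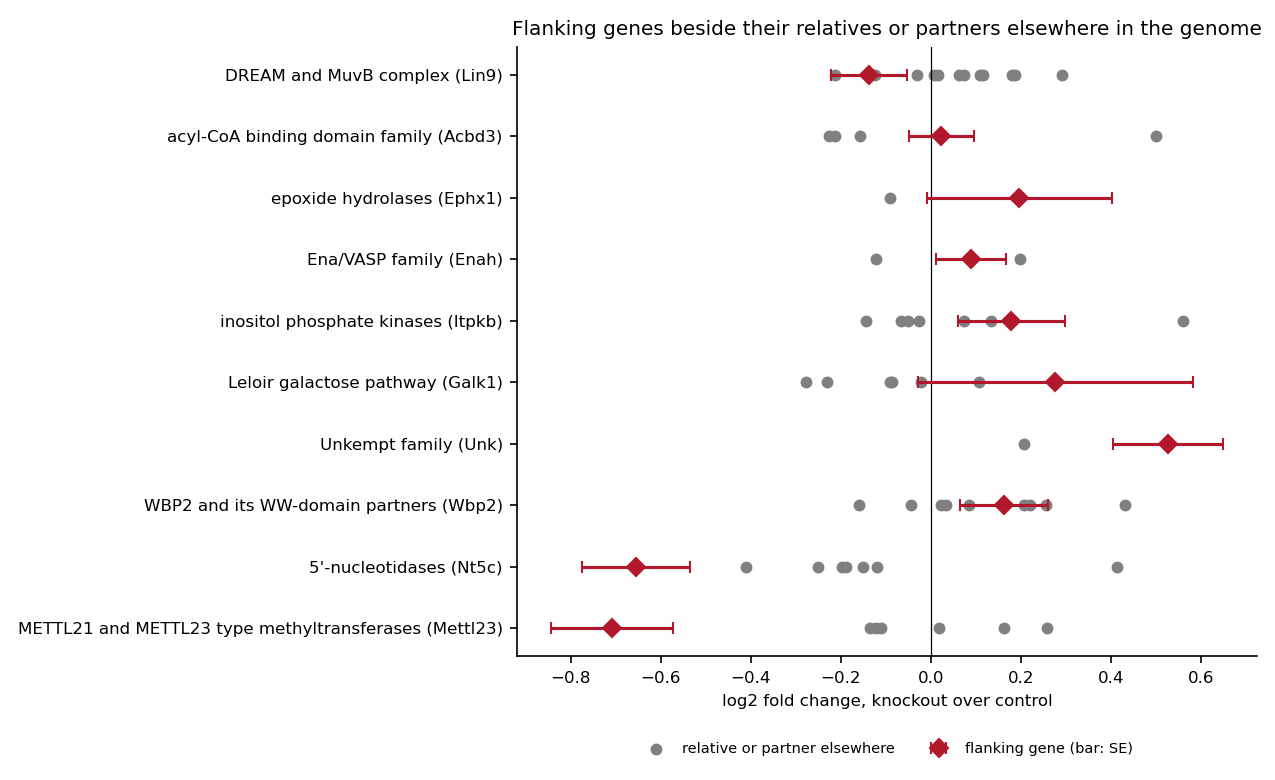
Log2 fold change of knockout over control for each flanking gene (red diamonds, bars are SE) and for the tested members of its family, complex or pathway that lie outside the neighbourhoods (grey points). Nt5c at -0.66 and Mettl23 at -0.71 lie below all of their relatives, which reach down to -0.41 and -0.14. Both genes were chosen on this contrast, so their place is a description and not a test.

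The genes whose pattern over the 6 libraries was most like that of the member with the largest fold at each locus were found by Pearson's r of log2 CPM, among 12483 genes that averaged 2 CPM or more and lay outside the neighbourhoods. For Ephx1 they were Fgd5, Nup188 and Mri1, with r of 0.996, 0.992 and 0.992. For Mettl23 they were Nlgn1, Cthrc1 and Laptm5, with r of 0.997, 0.995 and 0.992. Laptm5 belongs to the macrophage markers above. With only 6 libraries in 2 groups, high values were not particular to these genes: of the 12483, 88 had r above 0.95 with Ephx1 and 82 with Mettl23. The pattern of Ephx1 rests on 41 to 51 counts a library, at which a difference between the groups was not detectable.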

How the data were processed

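Polyadenylated RNA of each embryo went into a strand-marking KAPA library, per the labels' protocols. The authors deposited whole-number counts per gene symbol, with no normalization. The build was mm9, and the tools were TopHat2, Bowtie2, Trimmomatic and HTSeq, in no stated order, per the submitters' processing notes. How strand was set and which annotation was used is not given in the sources used here. Lines that name no gene stayed out of the tests. Alignments that matched no counted gene feature were 9.79% to 18.3% of the total, and non-unique alignments 18.2% to 22.6%. Tables of repeat names were not used.

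The comparison of 3 knockout with 3 control embryos was fitted in edgeR 4.0.16 under R 4.3.3 (robust quasi-likelihood F test, TMM, filterByExpr with a minimum count of 10 and total of 15, group as the only term), checked on simulated data. Each SE was derived from the size of the fold and its F statistic. Values per library against the control mean use a pseudocount of 0.5 CPM, and correlations edgeR's log2 CPM with a prior count of 2. DESeq2 1.42.0, other scalings and filters, a replicate block, knockouts 2 and 3 summed (their file names share a code) and each library left out were alternatives. Within groups, chi-square per degree of freedom between libraries was 17.6 to 48.6, so all are distinct.

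Gene order and exonic length came from GENCODE M21 (GRCm38), matched by symbol or RefSeq synonym. The members and lists were chosen with earlier results of these data known. The genes named were the members, the targeted genes and Trp53, the nearest gene on each side, called genes within 20 positions, for each list of relatives all tested genes up to 5 or otherwise the 2 with the smallest p, and the 3 most like the member with the largest fold at each locus. Unc13d, Itgb4, St6galnac2 and the neighbours of Nt5c and Mettl23 were added after values were seen, and 1 gene that the rule picks is not reported here.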

Additional observations from a re-analysis of the deposited data

How the results depend on the processing

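The numbers of genes called over all genes varied most. They were 142 with a filter of at least 1 CPM in 3 libraries (86 lower), 589 with the replicate number as a block (333 higher, 256 lower), 449 with knockouts 2 and 3 summed (270 higher), 769 by DESeq2 (441 higher, 328 lower), and 144 were higher without a filter. Leaving out 1 library gave 60 to 1663 called, 7 to 1159 higher and 53 to 504 lower, with the most without knockout 2. Same-numbered embryos deviated with correlations of -0.086, 0.17 and 0.26, and differently numbered ones with -0.42 to 0.32. Deviations from a mean of 3 embryos are not free of each other, so whether the numbers pair embryos could not be decided. The H3f3a median was 0.020 with library totals and 0.061 with 10 genes a side (0 called), and -0.048 to 0.0033 with 1 library left out (0 to 1 called). For H3f3b it was 0.084 with library totals and 0.13 with 10 genes a side (0 called). Leaving out the 3 members among those nearest genes, the median over the other 14 was 0.036. Around H3f3b 2 genes were called without a filter, with the replicate block, with knockouts 2 and 3 summed and by DESeq2. With 40 genes a side 2 were called, the members Nt5c and Mettl23, and none of the 58 other tested genes. With 1 library left out 0 to 3 were called around H3f3b, and the median was -0.013 to 0.038. The Trp53 median was 0.087 without a filter, 0.089 with the 1 CPM filter, 0.088 by DESeq2 (3 called), -0.014 with 10 genes a side (0 called), 0.091 with 40, and 0.058 to 0.26 with 1 library left out (0 to 3 called). Of 130 refits of the 10 members, 117 left the value within the spread of replicates or the call in place, 2 moved a value (Acbd3 to 0.080 with library totals, Galk1 to -0.20 without knockout 2) and 11 took Nt5c or Mettl23 to the other side of the threshold with the same sign (library totals for Mettl23, and for both leaving out any library other than knockout 2). Unk passed it by DESeq2, without a filter, with the replicate block, with knockouts 2 and 3 summed and without knockout 2. As the members were chosen on this contrast, these calls test nothing. No fold of a called member changed sign. The causes were not tested. With 3 embryos a group, differences as small as those of the genes beside H3f3a could not be resolved.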
